A study of Mus musculus with 12 samples.

Results

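The 39 genes described here encode the machinery that copies DNA and the enzymes that supply its building blocks. They were chosen by name and role, by a rule that uses no measured value, and all 39 were found among the 21887 protein-coding genes of the RefSeq table for GRCm38 (chromosomes 1 to 19, X and Y). The study mapped R-loops by immunoprecipitation with the S9.6 antibody, which recognises RNA-DNA hybrids, in HEPA1-6, a mouse hepatoma cell line, and in the liver of C57/Bl6 mice, both labelled wild type, untreated and hepatocyte, in a series on genome editing with adeno-associated virus vectors. Its 12 libraries form 6 groups of 2, since each source has S9.6 immunoprecipitates, immunoprecipitates with RNase H1 (an enzyme that removes the RNA of hybrids) and inputs. The age and number of the mice are not given in the sources used here. The values below come from 1 list of peaks per source, called on merged immunoprecipitates against input, so no difference between the lists has a replicate check and no test was made. A peak is a called interval of S9.6 signal, and a gene was said to hold it where at least 1 bp of the peak lay in the gene body or within 1 kb of it.

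An R-loop forms when a nascent RNA pairs with its DNA template and leaves the other DNA strand unpaired. It therefore arises at transcribed genes, above all at their starts and ends. Replication genes are transcribed mostly in dividing cells, where E2F transcription factors switch them on as a cell passes from G1 into S phase. Most hepatocytes of an adult liver are not dividing, whereas a hepatoma line is.

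The HEPA1-6 list held 28717 peaks and the list from liver 14908, and the sequencing depth behind either is unknown. Each peak carries a score by the authors, a whole number of 10 or more whose scale is not stated. The score was ranked within its own list only, and its percentile is the percentage of the list's peaks that scored lower, ties shared equally. Of 17 hepatocyte marker genes, 4 (Alb, Apoa2, Apoe and Hnf4a) held a peak in the list from liver, and these and Apob did so in HEPA1-6. The other 12 (Apoa1, Ttr, Serpina1a, Tat, Cps1, Ass1, G6pc, Pck1, Cyp2e1, Cyp3a11, Fgb and Ahsg) held none in either. Among markers of other liver cells, 3 of 7 Kupffer cell and leukocyte genes (Cd68, Csf1r and Cd74), 0 of 5 endothelial, 0 of 5 stellate and 1 of 4 cholangiocyte genes (Sox9) held a peak, and the same genes did so in both lists. The share of hepatocyte markers with a peak was 23.5% in the list from liver and 29.4% in HEPA1-6, beside 29.7% and 42.0% of all protein-coding genes. A majority of all protein-coding genes (56.1%) likewise held a peak in neither list. The markers thus do not show which cells the list from liver came from, and it is called liver-labelled after its label. No replication gene lies on chromosome 15, X or Y.

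Most replication genes held an S9.6 peak in HEPA1-6, and a smaller majority did so in the liver-labelled list. In HEPA1-6, 34 of the 39 genes (87.2%) held a peak, while 42.0% of all protein-coding genes did. For the liver-labelled list the count was 23 of 39 (59.0%), beside 29.7% of all protein-coding genes. Peaks in both lists were found at 23 replication genes (27.8% of all protein-coding genes), in HEPA1-6 only at 11 (14.2%), in the liver-labelled list alone at 0 (1.89%), and in neither list at 5 (56.1%). Given a HEPA1-6 peak, a liver-labelled one was present at 67.6% of replication genes and at 66.1% of protein-coding genes, which is nearly the same share.

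**Figure D1:**
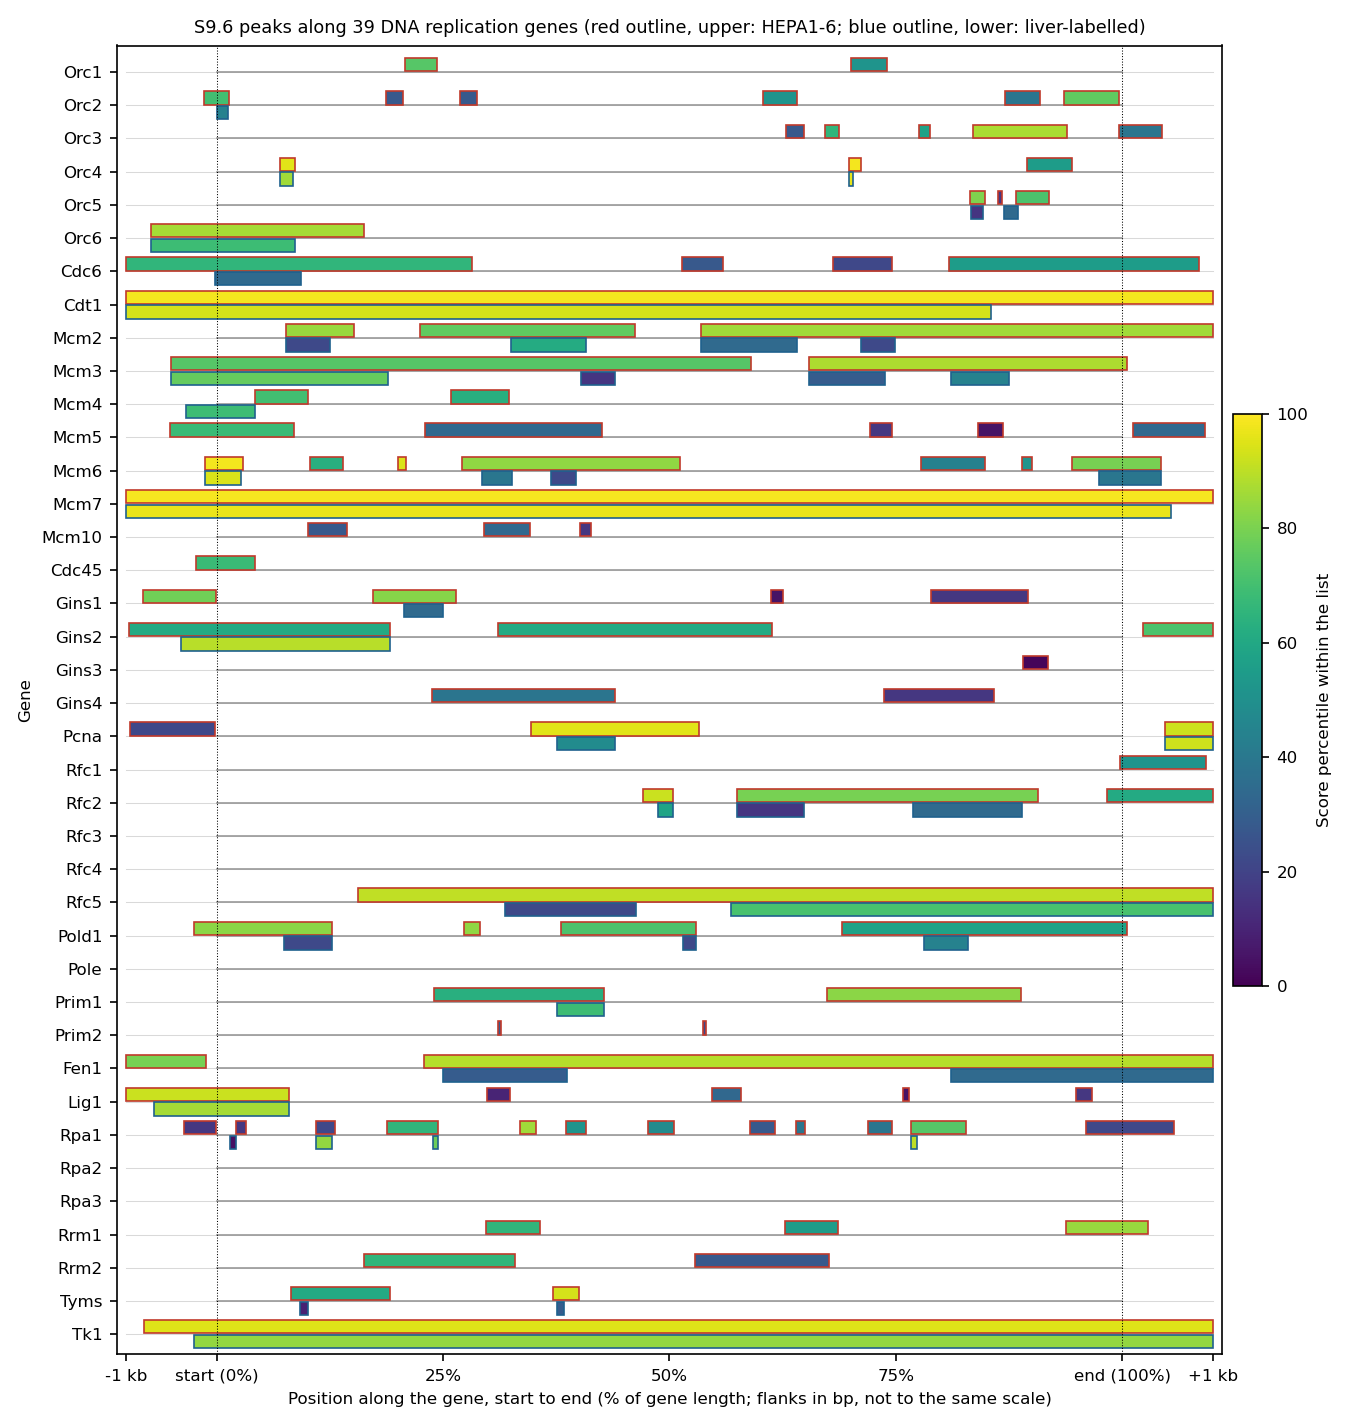
Peaks along the 39 genes, grouped by role from the origin recognition complex to deoxynucleotide supply. The x axis runs from 1 kb before the gene start to 1 kb after its end, with the body as a percentage of gene length and the flanks drawn on a scale of their own; boxes outlined in red (upper) are HEPA1-6 peaks, boxes outlined in blue (lower) liver-labelled peaks, and the fill gives the score percentile within the list. Peaks are clipped at the flanks, 5 genes are empty, and the direction of Mcm4, Gins1, Gins2, Gins4, Rfc2 and Prim2 was read from the peaks themselves, while that of Pole is unknown.

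Related gene lists, chosen with earlier results of these data known, gave similar shares. Peaks were found at 32 of 40 further replication genes in HEPA1-6 (80.0%) and at 25 of them in the other list (62.5%). Of 22 E2F and G1/S regulators the counts were 17 (77.3%) and 16 (72.7%), and of 30 mitosis genes 23 (76.7%) and 16 (53.3%). The share of the 39 genes was thus above that of all protein-coding genes for both sources, and near those of these cell cycle lists; no difference between gene lists was tested.

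**Figure D2:**
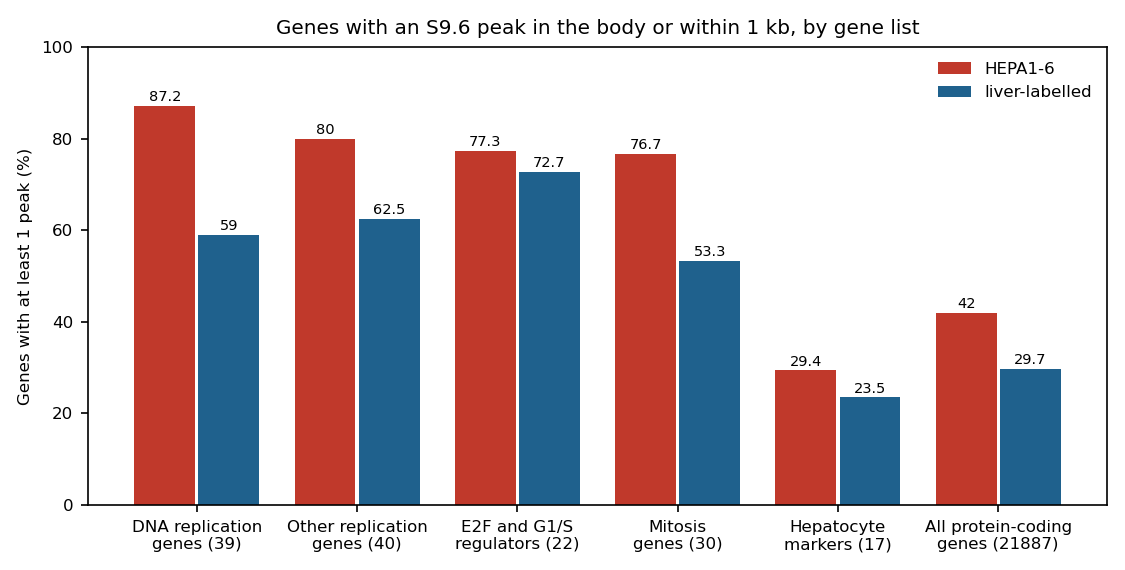
Share of genes with at least 1 peak (y axis, percent), with HEPA1-6 in red and the liver-labelled list in blue, for the 39 replication genes, 4 other gene lists and all 21887 protein-coding genes; the number of genes stands under each name. Replication genes reach 87.2% and 59.0%, hepatocyte markers 29.4% and 23.5%, and all protein-coding genes 42.0% and 29.7%.

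A long gene offers more room for a peak, and gene length was therefore set beside the counts. The replication genes had a median length of 16072 bp (3206 to 216001 bp), close to the 17169 bp of all protein-coding genes. Among the 8 replication genes of 5 to 10 kb, the HEPA1-6 list had peaks at 7 and the liver-labelled list at 6, where all genes of that length gave 43.3% and 30.8%. Among the 13 of 10 to 20 kb the counts were 11 and 8 (49.0% and 33.2% of all genes), and among the 11 of 20 to 50 kb they were 11 and 6 (50% and 34.0%). Only 2 genes were shorter than 5 kb and 5 longer than 50 kb, and 1 and 4 of them held a HEPA1-6 peak, and 1 and 2 one of the liver-labelled list (all genes: 22.5% and 47.3%, and 16.5% and 35.2%, in that order). The count per class was above the share of all genes in each of these 5 classes and both lists, by the least among the genes longer than 50 kb in the liver-labelled list.

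**Figure D3:**
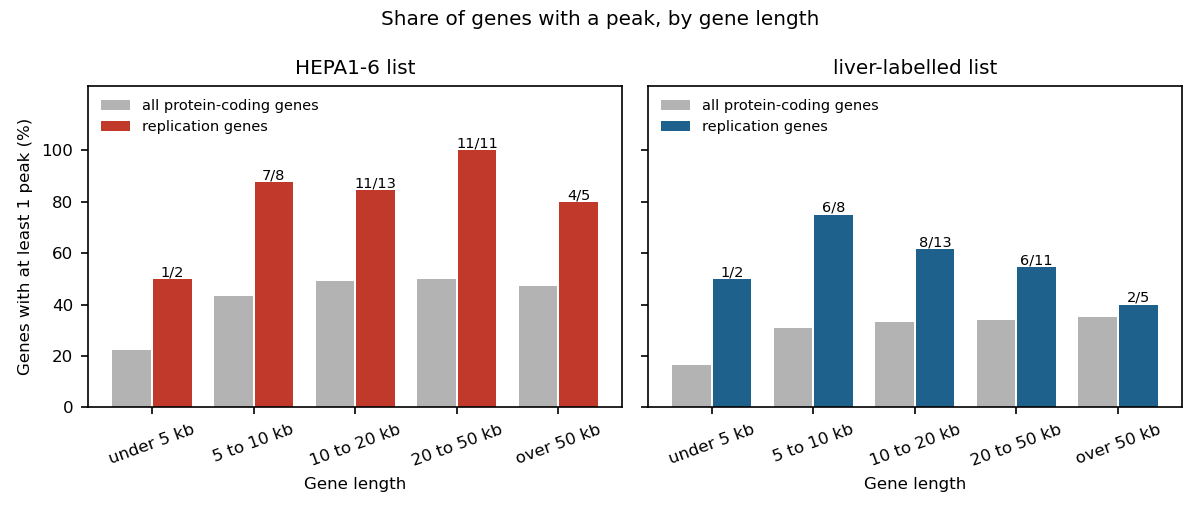
Share of genes with a peak (y axis, percent) by gene length class (x axis), for HEPA1-6 on the left and the liver-labelled list on the right; grey bars are all protein-coding genes, coloured bars the replication genes, with the number that held a peak over the number in the class. The bars of the shortest and longest classes rest on 2 and 5 replication genes.

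At the replication genes lay 102 HEPA1-6 peaks, of 230 to 17751 bp and with scores of 11 to 134, and 45 liver-labelled peaks, of 234 to 14752 bp and with scores of 13 to 78. Within 1 kb of another protein-coding gene lay 23 of the former and 10 of the latter, whose signal cannot be given to 1 gene alone. A replication gene with a peak held a median of 2.50 peaks in HEPA1-6 and of 2.00 liver-labelled peaks, beside 2.00 and 1.00 for all protein-coding genes with a peak. The peaks covered a median of 26.4% of the gene body for HEPA1-6 and 9.31% for the liver-labelled list, beside 15.4% and 5.84%. The highest peak of a gene had a median percentile of 83.9 in HEPA1-6 (34 genes) and of 68.7 in the liver-labelled list (23 genes). All protein-coding genes with a peak gave 79.5 and 68.7.

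The 45 liver-labelled peaks lay almost entirely within HEPA1-6 peaks. All 45 overlapped one, and 42 (93.3%) lay wholly inside one, while of the 11522 liver-labelled peaks at protein-coding genes 88.9% overlapped and 78.9% lay inside. At Mcm4 and at Rpa1 the overlap of a pair was just 4 bp. Of the 102 HEPA1-6 peaks, 40 (39.2%) overlapped a liver-labelled peak, beside 31.8% of the HEPA1-6 peaks at protein-coding genes. Each of the 23 genes with peaks in both lists had an overlapping pair. These were 23 of the 39 genes, beside 26.7% of all protein-coding genes. Of the 23, 12 (Mcm2, Mcm6, Mcm7, Orc2, Orc4, Orc5, Orc6, Gins2, Pcna, Lig1, Rpa1 and Tk1) had a pair that shared 50% of both peaks. For that stricter overlap no share over all genes is given.

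Genes without a liver-labelled peak had HEPA1-6 peaks of lower rank. The highest HEPA1-6 peak had a median percentile of 65.5 (1.39 to 87.2) at the 11 genes found in HEPA1-6 only and of 87.7 (65.5 to 98.5) at the 23 genes found in both lists. Over all protein-coding genes the medians were 51.6 and 88.2. Depth, which is unknown, and source cannot be told apart here.

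**Figure D4:**
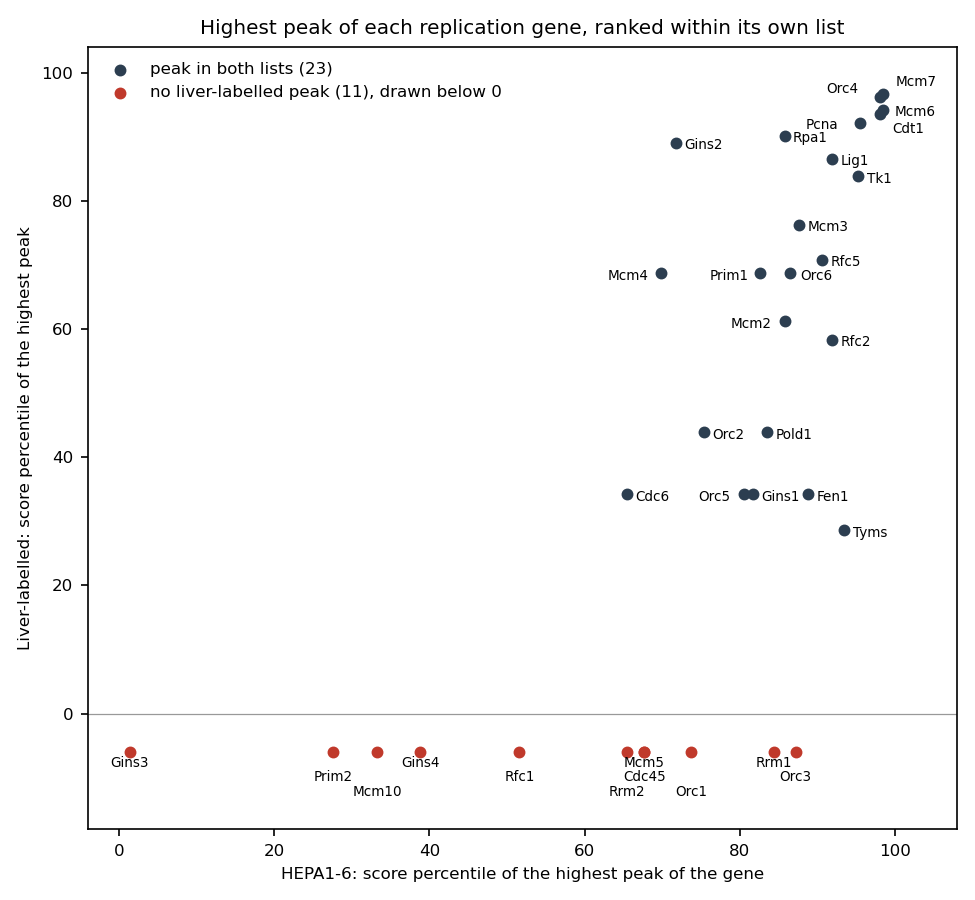
Score percentile of the highest peak of each gene in HEPA1-6 (x axis) against that in the liver-labelled list (y axis), each ranked within its own list. Dark points are the 23 genes with a peak in both lists; red points drawn below 0 are the 11 genes without a liver-labelled peak, which reach from 1.39 (Gins3) to 87.2 (Orc3) in HEPA1-6.

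The origin recognition complex, which binds origins and recruits the helicase, is encoded by Orc1 to Orc6. All 6 genes were found in HEPA1-6 and 4 of them also in the liver-labelled list, Orc1 and Orc3 being the exceptions. Orc4 ranked highest: its HEPA1-6 peak at chr2:48917269-48917947 scored 115 (percentile 98.1) and enclosed a liver-labelled peak at chr2:48917698-48917947 with a score of 73 (percentile 96.2). A further pair at Orc4, chr2:48948564-48949381 in HEPA1-6 (score 73) and chr2:48948704-48949381 in the liver-labelled list (score 40), lay less than 1 kb from Mbd5 and carried opposite strands. The shared end of this pair was 3521 bp inside the boundary that the gene table gives for the start of Orc4, but 114 bp before the start site in the promoter table, so these peaks count as start peaks by the promoter table only. The third HEPA1-6 peak at Orc4 scored 22. Orc6 held 1 peak over its start in each list (scores 42 and 28), and both peaks began at the same base, chr8:85298902. Orc2 held 6 HEPA1-6 peaks but just 1 liver-labelled peak, at its start (chr1:58504602-58505113, score 20). Orc5 held peaks only in the part of the gene towards its end, with scores of 29, 14 and 35 in HEPA1-6 and of 18 and 15 among liver-labelled peaks. Orc3 held 5 HEPA1-6 peaks, of which the one at chr4:34569733-34574729 reached a score of 43 without a liver-labelled counterpart. The others scored 16, 18, 23 and 26. Orc1 held 2 HEPA1-6 peaks inside its body (scores 30 and 21).

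Cdc6 and Cdt1, which load the helicase onto origins together with the origin recognition complex, held peaks in both lists. Cdt1 was covered over its whole body in HEPA1-6 and over 85.5% of it in the liver-labelled list. The HEPA1-6 peak, chr8:122566966-122579616, scored 116 (percentile 98.1) and the liver-labelled peak, chr8:122566966-122572389, scored 57 (percentile 93.5). Both began at the same base upstream of the gene, and the HEPA1-6 peak ran on past its end towards Aprt and Galns. Cdc6 was lower in rank, with 4 HEPA1-6 peaks (highest score 26) and 1 liver-labelled peak over its start (chr11:98907694-98909219, score 18).

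The MCM2-7 complex is the ring-shaped helicase that unwinds DNA at the fork. All 6 of its genes held peaks in HEPA1-6, and 5 did so in both lists. Mcm7 had the highest score of all 39 genes in each list: chr5:138162475-138173568 with a score of 134 in HEPA1-6 (percentile 98.5) and chr5:138164048-138173568 with a score of 78 in the liver-labelled list (percentile 96.6). Both peaks covered the whole gene, with the microRNA genes Mir25, Mir93 and Mir106b that lie inside it, and reached into its neighbours Cops6 and Ap4m1, so that the signal cannot be given to Mcm7 alone. The HEPA1-6 peak carried the strand of Mcm7 and the liver-labelled peak the opposite one.

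Mcm6, with no other protein-coding gene within 1 kb, showed a peak over its start in both lists. The HEPA1-6 peak, chr1:128358873-128359833, scored 126 (percentile 98.4), and the liver-labelled peak, chr1:128358939-128359833, scored 60 (percentile 94.2). They ended at the same base upstream of the gene. Mcm6 held 6 further HEPA1-6 peaks, with scores of 19, 21, 25, 34, 38 and 63, and 3 further liver-labelled peaks, with scores of 16, 19 and 19. All of these were lower than the peak at the start.

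The other helicase genes had lower scores, and their coverage varied. In HEPA1-6, 2 peaks covered 93.6% of Mcm3 (scores 30 and 44) and 3 peaks covered 77.8% of Mcm2 (31, 39 and 41). Each of these genes held 4 narrower liver-labelled peaks (15, 17, 20 and 32 at Mcm3 and 16, 16, 18 and 25 at Mcm2). Mcm4 held 2 HEPA1-6 peaks (25 and 28) and 1 liver-labelled peak (28), and the last 2 of these lay near its start and within 1 kb of Prkdc. The direction of Mcm4 was itself read from peaks over that gene alone. Mcm5 was the exception, with 5 HEPA1-6 peaks (chr8:75108958-75111085 over its start being the highest, score 27) and no liver-labelled peak.

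**Figure D5:**
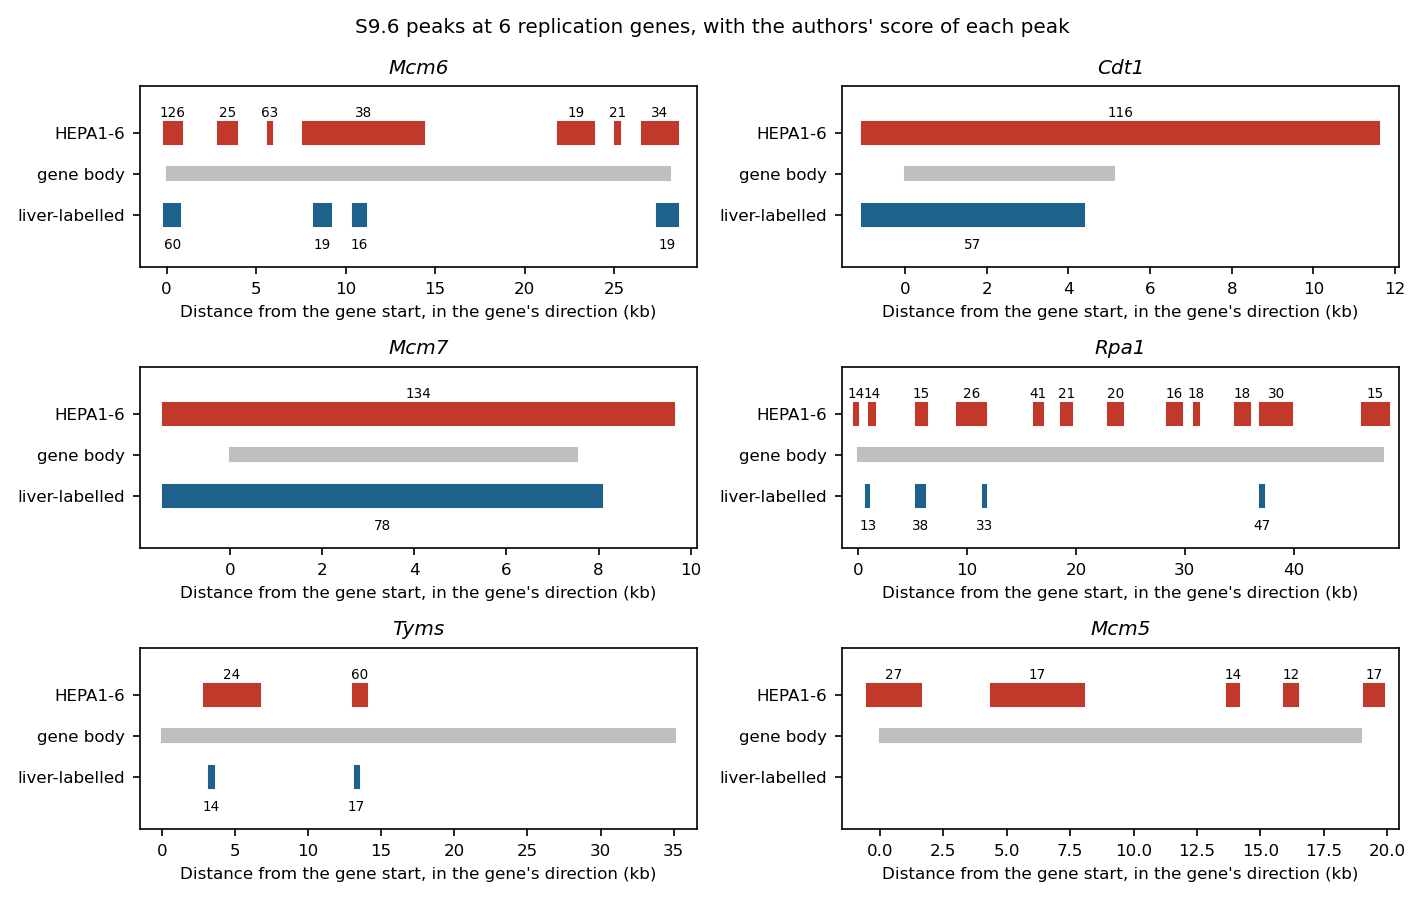
Peaks at 6 of the genes, drawn to scale by distance from the gene start in kb; grey bars are gene bodies, red bars HEPA1-6 peaks and blue bars liver-labelled peaks, each with the authors' score. Mcm6 shows a peak over its start in both lists (126 and 60), Mcm7 and Cdt1 are covered by wide peaks, Rpa1 and Tyms hold narrow liver-labelled peaks within HEPA1-6 peaks or beside them, and Mcm5 has no liver-labelled peak.

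Cdc45 and the GINS subunits join the MCM ring to make the active helicase, a step in which Mcm10 takes part. All 6 genes of this group held a HEPA1-6 peak, but of the 6 only Gins1 and Gins2 held a liver-labelled one. Gins2 was covered at its start by a liver-labelled peak of score 45 (chr8:120587576-120589465, percentile 89.1), inside a HEPA1-6 peak of score 24. A further HEPA1-6 peak of Gins2 also scored 24. One of score 29 lay inside Gse1, beyond the end of Gins2 but within 1 kb of it, and carried the opposite strand. The direction of Gins2, and so its start and end, was itself read from peaks over that gene alone. Gins1 held 4 HEPA1-6 peaks (12, 14, 33 and 36) and a single liver-labelled peak of score 18. Peaks of low rank only were found at Gins3 (1 peak, score 11, percentile 1.39), Mcm10 (14, 16 and 17) and Gins4 (14 and 18), all in HEPA1-6. Cdc45 held 1 peak over its start (score 27), which also overlaps Ufd1.

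Pcna, the ring that clamps polymerases to DNA, held peaks in both lists, whereas the clamp loader genes Rfc1 to Rfc5 varied. Pcna held 3 HEPA1-6 peaks, with scores of 72 inside the gene (chr2:132251104-132251826), 55 beyond its end towards Tmem230 and 15 before its start. Its liver-labelled peaks lay inside the first 2 of these, with scores of 21 and 52. Rfc2 held 3 peaks in each list (highest scores 54 and 24), and Rfc5 was covered over 84.4% and 57.8% of its body (score 50 in HEPA1-6, and 29 and 16 in the liver-labelled list), where the peaks of scores 50 and 29 also lay within 1 kb of Wsb2 or over it. Rfc1 held only a HEPA1-6 peak at its end (score 21), near Wdr19. Rfc3 and Rfc4 held none in either list. The nearest peak to Rfc4 lay 4279 bp away in both lists, and that to Rfc3 82598 bp away.

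Among the polymerase and primase genes, Pold1, the catalytic subunit of polymerase delta, held 4 HEPA1-6 peaks over 60.3% of its body (scores 23 to 38) and 3 liver-labelled peaks (16 to 20). Prim1, the catalytic primase subunit, held 2 and 1 (highest scores 37 and 28). Prim2, the other primase subunit and the longest of the 39 genes, held just 2 small HEPA1-6 peaks (15 and 16), which cover 0.554% of it. Pole, the catalytic subunit of polymerase epsilon, held no peak in either list although it spans 51150 bp; the nearest HEPA1-6 peak lay 23541 bp away and the nearest liver-labelled one 177727 bp away. Fen1 and Lig1, which trim and join Okazaki fragments, held peaks in both lists. Lig1 carried one over its start (chr7:13274422-13279911, score 54, and chr7:13276483-13279911, score 41), with a shared last base, and Zswim9 overlaps the same peaks. The other 4 HEPA1-6 peaks of Lig1 scored 12 to 17. Fen1 held HEPA1-6 peaks of 46 and 34, near or over Fads1, Tmem258 and Myrf, and liver-labelled peaks of 18 and 17.

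The subunits of RPA, which coats single-stranded DNA and can also bind the displaced strand of an R-loop, differed among themselves. Rpa1 held 12 HEPA1-6 peaks, the most of any of the 39 genes, in a gene of 48196 bp, with scores of 14 to 41. It also held 4 liver-labelled peaks with scores of 13, 33, 38 and 47, of which the highest was a narrow interval of 327 bp (chr11:75311199-75311525, percentile 90.1). Rpa2 and Rpa3 held none, and the nearest peak in either list lay at least 13295 bp from Rpa2 and at least 251034 bp from Rpa3. These are the shorter genes of the complex (10387 and 3206 bp).

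The genes of deoxynucleotide supply all held HEPA1-6 peaks, and Tyms and Tk1 also liver-labelled ones. Tk1, thymidine kinase, was covered whole in each list by 1 peak that also reached Syngr2 and Afmid (chr11:117809141-117826891, score 71, and chr11:117811582-117826333, score 38), and both peaks carried the strand opposite to Tk1. Tyms, thymidylate synthase, had a HEPA1-6 peak of score 60 (chr5:30059606-30060602, percentile 93.5), beside a lower one of 24. Its liver-labelled peaks scored 14 and 17, and the higher of them ranked lowest among the highest liver-labelled peaks of the 23 genes. Rrm1 and Rrm2, the subunits of ribonucleotide reductase, held 3 and 2 HEPA1-6 peaks (highest scores 39 and 26) and no liver-labelled peak.

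The position of the peaks was set against gene boundaries for the 32 genes with a strand in the RefSeq promoter table. Within 1 kb of the 5′ boundary, 16 of the 32 (50%) held a peak in HEPA1-6 and 10 (31.2%) in the other list, beside 24.5% and 16.7% of all 17492 protein-coding genes with an entry. Within 1 kb of the 3′ boundary the counts were 18 (56.2%) and 7 (21.9%), beside 23.8% and 11.8%. Of 6 genes whose strand was read from the peaks, 3 and 2 held a peak at the 5′ boundary and 2 and 0 at the 3′ boundary. In HEPA1-6 starts and ends were thus about equally often occupied, while the liver-labelled list had fewer genes at the end than at the start. Both patterns were also found over all genes with an entry, so they are not particular to the replication genes. The gene table gives neither exons nor untranslated regions, and positions within a gene were not divided further.

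The strand given to a peak mostly matched the gene. At the 32 genes, 78 of 86 HEPA1-6 peaks and 35 of 39 liver-labelled peaks carried the strand of the gene, and 8 (9.30%) and 4 (10.3%) the opposite one; over all genes with an entry the opposite share was 12.6% and 16.1%. Opposite peaks were found in HEPA1-6 at Mcm2, Orc3, Pcna, Rfc5, Fen1 and Tk1, and in the liver-labelled list at Mcm7, Orc4, Fen1 and Tk1. Another protein-coding gene lay within 1 kb of 6 of the 8 and 3 of the 4. How the strand was assigned is not given in the sources used here. The match can therefore not be taken as a measurement of the strand of the RNA.

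The peaks were next set against the promoter sequences, 250 bases before to 50 after a start site, which RefSeq (GRCm38.p6) gives for 32 of the 39 genes. The median GC content was 57.3%, beside 56.3% of all 17492 promoters, and the median number of CpG dinucleotides 21, beside 13. Protein-coding genes with a peak in both lists had medians of 62.0% and 22, and those with a peak in neither 51.3% and 5. The CpG number of the replication genes was thus near that of genes with peaks in general, and their GC content was lower. GC skew, the excess of G over C as a percentage of both on the transcript-sense strand, had a median of -0.92 at the replication genes and 0.71 over all promoters (interquartile range -8.62 to 10.21). It was -3.59 at the 17 replication genes with a HEPA1-6 peak within 1 kb of that start site and 4.94 at the 15 without, beside 0.00 and 1.03 over all promoters split the same way. High values were found at Cdc6 (38.95) and Mcm6 (25.88), which held a peak at the start in both lists, while Orc4 (-22.62) and Tk1 (-17.11) had the lowest and also held such peaks, Orc4 by the start site of the promoter table and not by its gene boundary.

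E2F factors bind TTTCCCGC and TTTGGCGC, and these letters were searched on both strands, allowing overlap with other motifs. A match was found in 10 of the 32 promoters (31.2%) and in 368 of all 17492 (2.10%). By peaks, 6 of 19 genes found in both lists held a match, 3 of 9 found in HEPA1-6 only, and 1 of 4 found in neither (Rfc3). Over all protein-coding genes with an entry, the shares of these classes were 3.49%, 3.05% and 1.15%, in the same order. The GC box GGGCGG was present in 22 of the 32 (68.8%, beside 46.3%) and the CCAAT box, read as CCAAT, in 21 (65.6%, beside 39.2%). Among protein-coding genes with a peak in both lists, the GC box was present in 67.3% and the CCAAT box in 39.6%. Among those with a peak in neither, the shares were 31.6% and 39.3%. The match nearest before the start site is shown for the 6 genes that have one, with 30 bases each in the direction of the gene and the match in capitals (GCGGGAAA and GCGCCAAA are the same sites on the other strand).
Cdc6, chr11:98908002-98908031, + strand: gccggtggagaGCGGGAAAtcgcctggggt
Mcm7, chr5:138172030-138172059, - strand: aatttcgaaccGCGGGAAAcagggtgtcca
Mcm6, chr1:128359734-128359763, - strand: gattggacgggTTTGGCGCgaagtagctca
Mcm5, chr8:75109349-75109378, + strand: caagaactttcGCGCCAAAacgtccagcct
Orc3, chr4:34614965-34614994, - strand: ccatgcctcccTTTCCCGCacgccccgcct
Gins3, chr8:95633507-95633536, + strand: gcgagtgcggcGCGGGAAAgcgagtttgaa
Cdc6, Mcm7 and Mcm6 held peaks at the start in both lists and Mcm5 in HEPA1-6 only, whereas Orc3 and Gins3 held none there in either list.

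The promoter of Mcm6 is shown in full up to its start site (250 bases, chr1:128359706-128359955, - strand, GRCm38.p6), because its peak ranked high in both lists and no other protein-coding gene lies near. Its 2 E2F-type matches are in capitals.
Mcm6: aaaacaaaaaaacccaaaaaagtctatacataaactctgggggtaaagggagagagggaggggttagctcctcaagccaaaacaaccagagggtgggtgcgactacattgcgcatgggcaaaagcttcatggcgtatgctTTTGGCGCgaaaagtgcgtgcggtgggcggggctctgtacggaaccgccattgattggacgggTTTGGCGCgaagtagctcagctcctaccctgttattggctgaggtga
The shared end of both Mcm6 peaks lay 128 bases before the start site, so that each peak took in both matches.

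Several liver-labelled peaks began or ended at the same base as a HEPA1-6 peak, and the letters at these edges were read where an edge fell inside a promoter window. The published R-loop method that the labels cite cuts genomic DNA with a mix of restriction enzymes before immunoprecipitation, although the labels themselves name no enzyme. Sites of 5 enzymes used for this purpose were searched: AAGCTT (HindIII), GAATTC (EcoRI), TCTAGA (XbaI), TGTACA (BsrGI) and AATATT (SspI), which read alike on both strands. An edge counted when it lay exactly where a fragment cut at such a site would begin or end, overhangs filled in. This held for 451 of 840 HEPA1-6 edges in promoter windows (53.7%) and for 329 of 778 liver-labelled edges (42.3%), beside 0.115% of all positions in the windows. Of 8 edges at the replication genes, 4 lay at a site, among them both edges that the lists share. They are shown with 30 bases in the direction of the gene and the site in capitals.
Mcm6, both lists, chr1:128359817-128359846, - strand: gcgcatgggcaaAAGCTTcatggcgtatgc
Orc4, both lists, chr2:48949365-48949394, - strand: ggaagttgctacTCTAGAgcagccccagct
Orc2, HEPA1-6, chr1:58505242-58505271, - strand: agctagactaacAATATTaagattgacata
Cdc45, HEPA1-6, chr16:18812191-18812220, - strand: gcctgaggtttgAATATTacttaaagtaaa
The other 4 edges, at Orc2 (liver-labelled) and at Pcna, Fen1 and Rpa1 (HEPA1-6), lay at none of these sites. Over all replication genes, 22 of the 45 liver-labelled peaks (48.9%) shared their first or last base with a HEPA1-6 peak, beside 41.1% of liver-labelled peaks at protein-coding genes. The part of these sites in the width of peaks, or in the number of genes they reach, was not tested.

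Of the 40 further replication genes, 24 held a peak in both lists, and 7 (Pola1, Pold4, Pole2, Dbf4, Cdc7, Rnaseh2b and Dck) held none. Mcm8 had a liver-labelled peak alone (score 41). Genes of this longer list were picked for mention with their values known. Rnaseh2a and Rnaseh2c, subunits of an enzyme that cleaves the RNA of RNA-DNA hybrids, had highest scores of 80 and 69 in HEPA1-6 and of 16 and 28 in the liver-labelled list. Dbf4 and Cdc7, which form the kinase that starts the loaded helicase, were both without a peak.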

How the data were processed

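DNA-RNA immunoprecipitation libraries from HEPA1-6 cells and mouse liver were analysed from 1 deposited peak list per source. Per the submitters' processing notes, CASAVA 1.8.2, cutadapt, Bowtie2, bedtools, SAMtools and MACS2 were used with build mm10, whose roles and thresholds are not given in the sources used here; the deposited names of the peaks speak of merged immunoprecipitates against an input. The score deposited by the authors has no stated scale and was ranked within its list. Values of single libraries and of RNase H1 libraries were not analysed here, so depth and RNase H1 sensitivity are unknown. Coordinates are 1-based, GRCm38. Gene bodies came from RefSeq (GRCm38.p6), gene strands from its promoter table or, where a gene had no entry, from the strands of peaks over that gene alone. Shares over all protein-coding genes serve as background. The rule for the 39 genes used no measured value, but genes and lists were chosen with earlier results of these data known. By rule, all 39 genes are named, and every peak score is given for the extremes in rank, coverage and gap between lists, for opposite strands and for classes of 5 or fewer genes. Intervals were processed with Python 3.11.15, numpy 2.4.6 and pandas 2.3.3, with functions tested on simulated data.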

Additional observations from a re-analysis of the deposited data

How the results depend on the processing

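Of 65 alternatives for 13 results, 57 stayed within 1.5 times the count or inside the 95% interval of the median, and 8 moved. Counting only peaks more than 1 kb from any other protein-coding gene left 15 genes with a peak in both lists, 3 in the liver-labelled list only (Cdt1, Fen1 and Rfc5) and 10 in neither. Counting only peaks on the strand of the gene left 2 in the liver-labelled list only (Fen1 and Rfc5). With the higher-scoring 50% of each list, and with equal numbers of peaks in both lists, 9 genes held no peak, because Gins3, Gins4, Mcm10 and Prim2 lost theirs; equal numbers left 7 genes in HEPA1-6 only. Overlapping peaks that share 50% of both intervals were found at 12 genes. With a flank of 5 kb, Rfc4 gained a peak in both lists. The start sites of the promoter table, tried after seeing the data, gave 17 of the 32 genes with an entry a HEPA1-6 peak at the start and 12 a liver-labelled one, where the gene boundaries gave 16 and 10 of the same 32. No paired analysis was possible because the lists pool the replicates that share numbers in the labels, and for the same reason no replicate could be left out. The unknown depth limits every count of genes without a peak. For the alternative counts, no share over all protein-coding genes is given.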

Other observations

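Among the 22 E2F and G1/S regulators, E2f1, E2f3, E2f4, E2f5, E2f7 and E2f8 held S9.6 peaks in both lists. E2f2 and E2f6 held none in either. The highest scores of these E2F genes were 61 at E2f1 and 86 at E2f3 in HEPA1-6, and 43 and 53 in the liver-labelled list. Of the pocket protein genes, whose products hold E2F factors back, Rbl1 held peaks in both lists (27 and 21), while Rb1 and Rbl2 held none. Cdk4 had the highest score of these regulators in each list (165 and 89). Cdkn1a and Cdkn1b, inhibitors of cyclin-dependent kinases, also held peaks in both lists, with scores of 56 and 61 in HEPA1-6 and of 45 and 88 in the liver-labelled list. They were singled out with their values known.

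Overlaps of exactly 4 bp between a HEPA1-6 and a liver-labelled peak, as seen at Mcm4 and Rpa1, occurred in 77 of 11455 overlapping pairs of the whole lists and in 2 of 45 pairs at the replication genes. Over the 23 genes with peaks in both lists, the percentiles of the highest peaks had a Spearman's rho of 0.60, as a description across genes that share the same libraries.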
